A study of Mus musculus with 2 samples.

Results

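The citric acid cycle enzymes described here are the products of 9 genes, Cs, Idh3a, Idh3b, Idh3g, Ogdh, Dlst, Suclg1, Fh1 and Mdh2. Their members are the 22 probe sets annotated to 1 of these genes and to no other, out of 45101 probe sets on each array and 18193 genes with a probe set of their own. Transcript levels were compared between hepatocytes sorted as EzrinT567D positive and as EzrinT567D negative, with 1 Affymetrix Mouse Genome array in each group. Both groups were GFP-sorted hepatocytes of male FVB mice of 6 to 8 weeks. All mice had received, by hydrodynamic tail vein injection, 10 µg of the PT3EF5α EzrinT567D plasmid and 0.8 µg of pCMV/SB, which encodes the Sleeping Beauty transposase, dissolved in 2 ml saline. Collagenase-isolated hepatocytes were sorted 1 week later, and GFP fluorescence stands for EzrinT567D, an ezrin with an acidic residue in place of a regulatory threonine. The negative group therefore comes from injected livers too, from cells sorted as GFP-negative. The growth protocol gives chow for both groups, whereas the description fields say 2 months for both and name fast food as the diet of the positive sample, so diet and transgene cannot be told apart. The sources used here give neither the number of mice or livers nor any pooling.

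The citric acid cycle runs in the mitochondrial matrix. It oxidises the acetyl group of acetyl-CoA to carbon dioxide and passes the electrons to NADH and, at succinate dehydrogenase, to ubiquinone. Hepatocytes also draw on its intermediates: oxaloacetate feeds gluconeogenesis, citrate is exported for fatty acid synthesis, and oxoglutarate, fumarate and malate connect the cycle to amino acid breakdown and the urea cycle. Citrate synthase (Cs) opens the cycle. The NAD-dependent isocitrate dehydrogenase is built from a catalytic subunit (Idh3a) and the subunits Idh3b and Idh3g. Ogdh and Dlst are the first and second components of the oxoglutarate dehydrogenase complex, Suclg1 is the alpha subunit shared by both succinyl-CoA ligases, Fh1 is fumarate hydratase and Mdh2 is mitochondrial malate dehydrogenase.

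Signals are deposited MAS5 intensities on a linear scale, and each ratio below is the positive over the negative array. A signal counts as above background when it exceeds a floor, set per array at the 95th percentile of 87 chemosensory receptor probe sets, which was 272 for the negative and 334 for the positive array. Each gene is read from its brightest probe set, and 8273 genes exceeded the floor in both arrays. With 1 array per group there is no replicate error and no test between the groups. The error these arrays do show is technical: the difference in log2 ratio between a gene's 2 brightest probe sets had an SD of 0.41 over 3141 genes, which corresponds to a spread of 0.29 for 1 ratio. RNA quality, read as control signal at the 3′ end over that at the 5′ end, stood at 0.970 (negative) and 0.864 (positive) for actin, and at 3.46 (negative) and 3.13 (positive) for Gapdh. All 8 hepatocyte markers (such as Alb and Ttr) exceeded the floor in both arrays. Of 8 Kupffer cell and leukocyte markers 5 lay below it in both, as did all 4 cholangiocyte markers on the array, and no marker read 0. For erythroid cells, Alas2 exceeded the floor in both arrays (689.6 negative, 733.4 positive) and Hba-a1 in neither (222.7 and 62.9). Summed marker signals in the negative and positive arrays were 1987.3 and 1842.5 for Kupffer cells and leukocytes, 2707.9 and 3268.2 for endothelial cells (4 of 6 markers measured), 2518.6 and 2201.0 for stellate cells (4 of 6 measured) and 448.5 and 639.1 for cholangiocytes. These sums include signals below the floor, and the sum for cholangiocytes holds no others. The part of these other cell types in the ratios below was not tested. In such sorted bulk RNA, fewer cells of a type and less RNA per cell cannot be told apart.

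All 9 enzymes were measured in both arrays, and 8 of them read lower in EzrinT567D-positive hepatocytes, by small amounts. Fh1 was the lowest at 1.80-fold, followed by Ogdh at 1.36-fold and Idh3g at 1.27-fold, while Cs, Dlst, Suclg1 and Idh3a differed by 1.07-fold or less. The median log2 ratio of the 9 genes was -0.24, against 0.00 over all 8273 genes. A ratio below 0 was found in 50.0% of all genes. A log2 ratio of -0.32 or lower, the smaller of the sizes counted, was found for 3 of the 9 (Fh1, Ogdh and Idh3g) and for 14.4% of all genes. None of the 9 was at 0.32 or higher (17.3% of all genes), and none was 2-fold lower (0.616% of all genes).

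**Figure D1:**
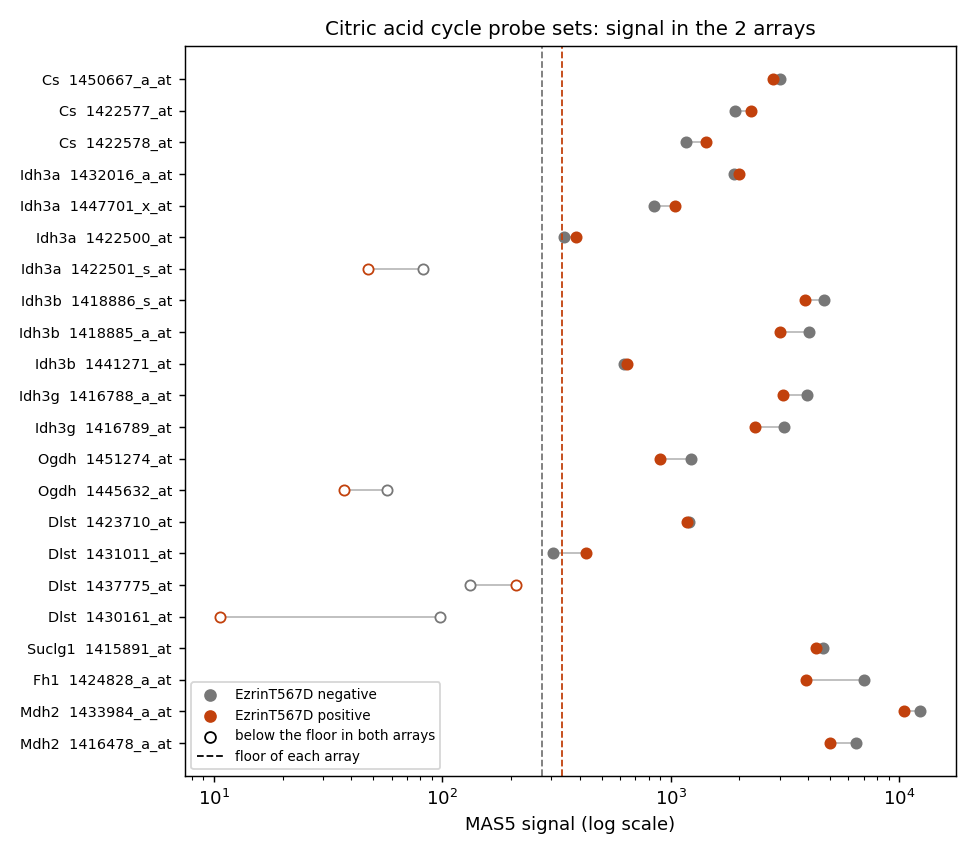
MAS5 signal (horizontal log axis) of each of the 22 probe sets of the 9 genes (rows, in the order of the cycle) in the EzrinT567D-negative array (grey) and the EzrinT567D-positive array (orange). Open circles lie below the floor in both arrays and dashed lines mark the floors, 272 and 334. The Fh1 pair (7021.3 and 3899.0) is the widest among the filled pairs.

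Brightness bears on how these ratios are read, because bright genes as a whole read lower in the positive array. By signal band, the median was -0.04 for 2875 genes averaging 1000 to 4000, -0.11 over 678 genes of 4000 to 10000 and -0.12 over 346 genes above 10000. Ratios below 0 made up 57.0%, 68.6% and 78.3% of these bands. The members lie in them, 5 in the first, 3 in the second and 1 in the third. A loess correction, which removes this dependence on signal, left 8 of 9 enzymes below 0 (52.0% of all genes) with a median of -0.13. Quantile normalization also left 8 of 9 below 0 (51.0% of all genes), with a median of -0.12. Some of the 8 were then close to 0. With loess Suclg1 was at -0.01, Dlst at -0.02 and Cs at -0.04. With quantile normalization they were at -0.01, -0.02 and -0.05. As deposited, Suclg1, Dlst and Idh3a lay above the medians of their signal bands, by 0.01, 0.02 and 0.12. Under either scaling Ogdh and Fh1 were below -0.32, whereas Idh3g was not, at -0.27 with loess and -0.28 with quantile normalization.

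**Figure D2:**
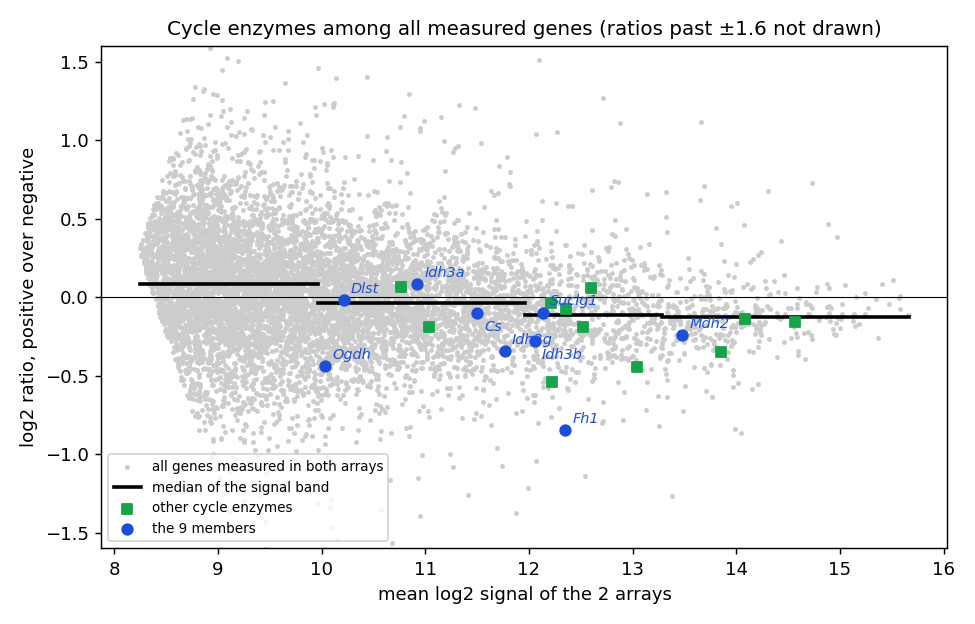
Log2 ratio, positive over negative (vertical axis), against the mean log2 signal of both arrays (horizontal axis) for the 8273 measured genes (grey), the 9 members (blue, named) and 11 other cycle enzymes (green squares). Black bars are the medians of the signal bands, which fall from 0.08 for the dimmest band to -0.12 for the brightest, and Fh1 at -0.85 lies farthest below its band.

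Fumarate hydratase, which converts fumarate to malate, was the enzyme with the largest difference. Its only probe set, 1424828_a_at, read 7021.3 in negative and 3899.0 in positive hepatocytes, a log2 ratio of -0.85, or 2.91 times the technical spread of 1 ratio. A ratio this low or lower was found in 1.03% of all measured genes and in 0.590% of the 678 genes of its signal band. It was -0.77 after quantile normalization and -0.76 after the loess correction. Because Fh1 has 1 probe set, no second reading of its transcript was available.

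Malate dehydrogenase, which follows fumarate hydratase and regenerates oxaloacetate, was lower in both of its probe sets. The brighter, 1433984_a_at, read 12405.8 and 10499.0 (negative, then positive; log2 ratio -0.24, 1.18-fold lower), and 1416478_a_at read 6453.7 and 4989.5 (-0.37). The brighter ratio is within the technical spread of 0.29. It lies below the median of its signal band (-0.12), of which 24.0% had a ratio this low or lower. It was -0.12 with quantile normalization and -0.13 with loess.

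The promoters of these 2 enzymes and of Idh3g and Cs are shown. The first 3 genes were lower in every probe set above the floor (for Fh1 only 1), while the readings of Cs were split. Ogdh and Suclg1, each lower in its 1 probe set above the floor, are left out of the display. Each line gives the 250 bases before the annotated start on the coding strand, from RefSeq with build GRCm38.p6. Fh1 lies at chr1:175625636-175625885 (minus strand), Mdh2 at chr5:135778399-135778648 (plus), Idh3g at chrX:73786898-73787147 (minus) and Cs at chr10:128337477-128337726 (plus). Capitals mark matches, on either strand, to the motifs searched.
Fh1: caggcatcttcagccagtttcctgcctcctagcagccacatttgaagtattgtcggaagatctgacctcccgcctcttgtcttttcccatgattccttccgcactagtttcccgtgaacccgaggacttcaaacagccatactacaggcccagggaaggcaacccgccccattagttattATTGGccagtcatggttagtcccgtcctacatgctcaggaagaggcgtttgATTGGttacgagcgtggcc
Mdh2: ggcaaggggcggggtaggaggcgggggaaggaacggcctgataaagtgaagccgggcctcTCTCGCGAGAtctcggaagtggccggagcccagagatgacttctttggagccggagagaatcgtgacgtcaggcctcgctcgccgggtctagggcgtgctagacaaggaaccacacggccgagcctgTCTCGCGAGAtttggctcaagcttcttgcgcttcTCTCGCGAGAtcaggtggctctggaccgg
Idh3g: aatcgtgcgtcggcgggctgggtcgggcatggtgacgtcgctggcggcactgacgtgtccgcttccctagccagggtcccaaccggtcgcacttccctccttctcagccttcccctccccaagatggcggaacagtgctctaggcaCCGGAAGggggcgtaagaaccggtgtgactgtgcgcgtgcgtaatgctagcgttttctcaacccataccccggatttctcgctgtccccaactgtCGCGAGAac
Cs: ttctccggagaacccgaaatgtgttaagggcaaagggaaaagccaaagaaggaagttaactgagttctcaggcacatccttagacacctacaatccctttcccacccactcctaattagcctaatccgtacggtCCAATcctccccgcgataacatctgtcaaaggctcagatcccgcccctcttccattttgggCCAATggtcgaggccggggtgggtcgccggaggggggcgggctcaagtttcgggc
The motifs were the half-site of NRF1 (TGCGCA), those of the oestrogen-related receptors (ERR, AAGGTCA) and GABP (CCGGAAG), factors known to act on genes of mitochondrial respiration, and that of the TEAD partners of Yap (GGAATG). An arm of the palindromic BANP motif (TCTCGCG) and the NF-Y motif (CCAAT) were added after the sequences had been read. The table held 13 windows for 8 of the 9 genes, 6 of them from overlapping or neighbouring starts of Ogdh, and 32851 windows in all. ERR and TEAD letters were in none of the 13 windows, and in 4.08% and 12.6% of all windows. NRF1 letters were in 2 overlapping windows of Ogdh (6.43% of all windows), and GABP letters in Idh3g alone among the members (6.91% of all windows). Mdh2 held the BANP letters at 3 places, each time as both arms of the palindrome, and Idh3g held 1 arm. They were present in 2.10% of all windows, and at 3 or more places in 10 windows. CCAAT letters were in windows of Cs, Fh1, Idh3b and Ogdh (33.8% of all windows). No 2 of these motifs overlap in the sequences shown. The matches describe letters in a window and do not show binding.

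The subunits of NAD-dependent isocitrate dehydrogenase had ratios on both sides of 0, with a gap about as large as the technical disagreement within genes. For the catalytic subunit Idh3a, the signals were 1891.5 and 2001.0 in 1432016_a_at (negative, then positive), 847.8 and 1041.0 in 1447701_x_at and 341.6 and 384.4 in 1422500_at. All 3 log2 ratios were above 0, at 0.08, 0.30 and 0.17, or 0.28, 1.01 and 0.58 times the technical spread of 1 ratio. The signals of 1422500_at are close to the floor. The fourth probe set, 1422501_s_at, was below the floor in both arrays at 82.3 and 47.3. Idh3a was the only one of the 9 genes above 0 in its brightest probe set.

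For Idh3g the signals were 3933.3 and 3093.7 in 1416788_a_at and 3136.4 and 2350.6 in 1416789_at. Both readings were lower in the positive array, with log2 ratios of -0.35 and -0.42. Idh3b read 4692.1 and 3863.4 in 1418886_s_at (-0.28) and 4015.4 and 3018.8 in 1418885_a_at (-0.41). Another Idh3b probe set, 1441271_at, for which the annotation lists no accession, read 625.4 and 643.2 (0.04), so the probe sets of Idh3b differ in sign. The gap between Idh3a and Idh3g was 0.43 on the log2 scale, 1.04 times the SD of 0.41 between 2 probe sets of 1 gene, so it is about as large as the technical disagreement these arrays show within genes.

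**Figure D3:**
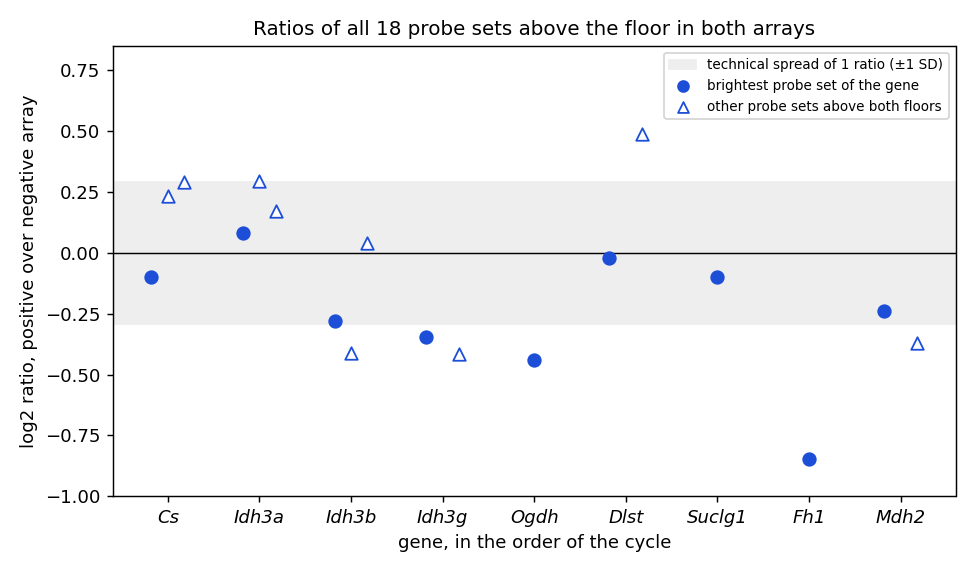
Log2 ratio, positive over negative (vertical axis), for the 18 probe sets that exceeded both floors, by gene in the order of the cycle. Filled circles are each gene's brightest probe set, open triangles its other probe sets, and the grey band is the technical spread of 1 ratio (0.29). Fh1 lies far below the band, Cs, Idh3b and Dlst have points on both sides of 0, and all 3 points of Idh3a lie above 0.

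In the oxoglutarate dehydrogenase complex, the first component read lower and the second was near 0 in its brightest probe set. Ogdh, the thiamine-dependent component, read 1221.9 and 899.9 in 1451274_at, a log2 ratio of -0.44 at 1.51 times the technical spread, and 8.22% of all genes had a ratio this low or lower. Its other probe set, 1445632_at, was below the floor in both arrays at 57.3 and 37.1. Dlst, the succinyl-transferring core, read 1197.6 and 1180.5 in 1423710_at (-0.02) and 304.1 and 426.0 in 1431011_at (0.49, close to the floor). Its probe sets 1437775_at (132.6 and 209.6) and 1430161_at (98.2 and 10.6) exceeded neither floor and give no ratio. Dld, the dehydrogenase component shared with the pyruvate dehydrogenase complex, read 2249.4 and 1973.0 (-0.19). The gap between Ogdh and Dlst was 0.42, or 1.02 times the SD between probe sets of 1 gene. It too is about as large as the technical disagreement within genes.

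Citrate synthase and the shared succinyl-CoA ligase subunit gave no clear difference. Cs read 3008.4 and 2806.6 in its brightest probe set, 1450667_a_at (-0.10), but 1909.5 and 2247.3 in 1422577_at (0.23) and 1165.9 and 1425.2 in 1422578_at (0.29). The direction for Cs thus depends on the probe set, and its mean over the 3 was above 0, at 0.14. Suclg1 read 4650.5 and 4341.9 in its 1 probe set (-0.10), and its signal band had a median of -0.11. Of the 18 probe sets that exceeded both floors, 11 were lower and 7 higher in EzrinT567D-positive cells, where 47.8% of all such probe sets were lower. At -0.32 or lower were 6, and 1 was at 0.32 or higher (13.8% and 19.3% of all probe sets), and the median over the 18 was -0.10.

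The count of 8 lower enzymes rests on the brightest probe sets. Averaging all probe sets of a gene put 6 of 9 below 0 (46.6% of all genes), with Cs and Dlst now above it. Another alternative left out every probe set with a letter before _at in its name, such as _a_at or _s_at, called lettered here. An _a_at name does not by itself mark a probe set as shared between genes. Of the 7 genes left, 4 were below 0 (47.5% of all genes) and the median was -0.02. That alternative removes Fh1 and Mdh2 altogether, since every one of their probe sets has such a name, and it turned Cs to 0.23 and Idh3b to 0.04. Idh3g (-0.42) and Ogdh (-0.44) were lower there as well.

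**Figure D4:**
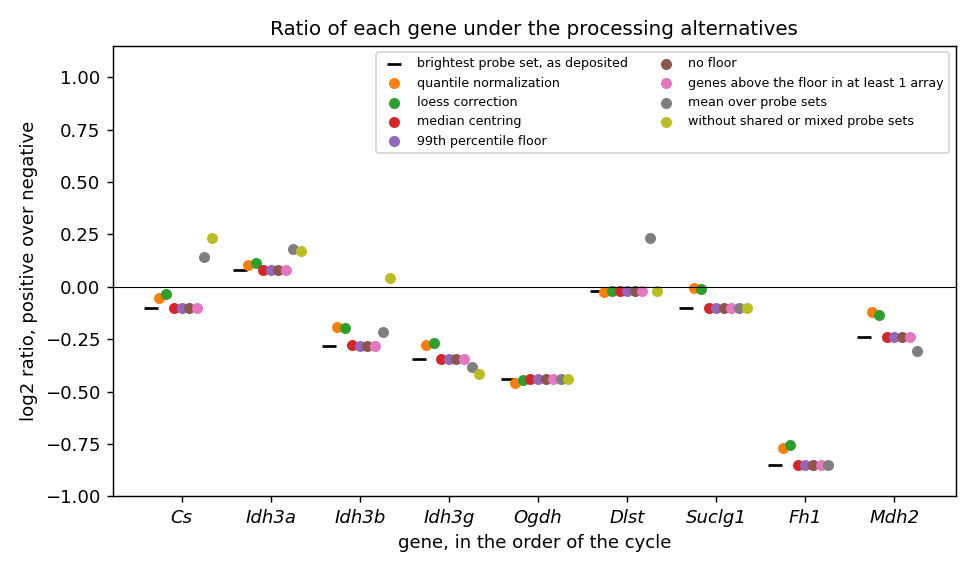
Log2 ratio of each of the 9 genes (vertical axis; genes in the order of the cycle) as deposited (black bar) and under 8 processing alternatives (coloured points). Fh1, Ogdh, Idh3g, Mdh2 and Suclg1 are below 0 wherever they have a value and Idh3a is above 0 throughout, whereas Cs, Idh3b and Dlst each change sign with the probe sets used.

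The remaining enzymes of the cycle had log2 ratios from -0.54 to 0.07, against -0.85 to 0.08 for the 9 members. Among 11 such genes measured in both arrays, 9 read lower and 2 higher, and the median log2 ratio was -0.16. All 11 are bright enough to lie in the bands where 57.0% to 78.3% of genes were below 0. At -0.32 or lower were 3 (14.4% of all genes): Suclg2, the GTP-specific beta subunit of succinyl-CoA ligase, read 5771.1 and 3958.5 (-0.54, with a second probe set at -0.06), Sdhb, the iron-sulfur subunit of succinate dehydrogenase, 9830.7 and 7222.7 (-0.44), and Sdha, its flavoprotein subunit, 16697.0 and 13126.7 (-0.35, second probe set -0.32). The ATP-specific subunit Sucla2 had a ratio of -0.19. The membrane subunits of succinate dehydrogenase were at 0.06 for Sdhc, whose second probe set was at -0.30, and at -0.08 for Sdhd (second probe set -0.36). The NADP-dependent mitochondrial isocitrate dehydrogenase Idh2 had a ratio of 0.07. The cytosolic enzymes were at -0.14 for Idh1 (second probe set 0.15), -0.16 for Mdh1 (others -0.22 and -0.53) and -0.04 for Aco1 (second probe set -0.40).

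The reactions that bring pyruvate into the cycle showed no common direction. Among 10 measured genes, 5 read lower and 5 higher, and the median was -0.03. In the pyruvate dehydrogenase complex, Pdha1 was at 0.02, Pdhb at -0.25 (second probe set 0.51) and Dlat at 0.29 (other probe sets -0.01 and 0.17). Pyruvate carboxylase (Pcx), which makes oxaloacetate from pyruvate, was lower, at 3190.9 and 2373.2 (-0.43). Among the kinases that inactivate pyruvate dehydrogenase, Pdk1 read 1060.4 and 763.3 (-0.47, and lower in all 3 probe sets that exceeded both floors). Pdk4 read 187.6, below the floor, in negative and 890.3 in positive hepatocytes, which makes it at least 3.27-fold higher. Pdk2, the brightest of these kinases, read 1507.3 and 1629.3 (0.11), and Pdk3 exceeded neither floor. Pdk2, Pdk3 and Pdk4 were named after their values were seen. The pyruvate carrier subunit Mpc1 was at 0.25.

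Enzymes and carriers that exchange intermediates with the cycle had log2 ratios from -1.14 to 1.05. Among 16 measured genes, 12 read lower (50.0% of all genes) and 4 higher, and the median was -0.28. In the signal bands above 1000, which hold most of these genes, 57.0% to 78.3% of genes were below 0. At -0.32 or lower were 7 (14.4% of all genes), and 1 was at 0.32 or higher (17.3%). The 2 that were 2-fold lower compare with 0.616% of all genes. The citrate lyase Acly, which splits exported citrate, read 8873.6 and 4019.2 (-1.14, and lower in all 3 probe sets that exceeded both floors), and the cytosolic aspartate aminotransferase Got1 read 2847.5 and 1417.7 (-1.01). The aspartate-glutamate carrier Slc25a13 read 2748.1 and 1616.4 (-0.77), and Pck1, which takes oxaloacetate to gluconeogenesis, 16430.8 and 10858.7 (-0.60 in both probe sets that exceeded the floors). Glutamate dehydrogenase (Glud1, -0.06, second probe set 0.19), mitochondrial Got2 (-0.16, others -0.08 and 0.69) and malic enzyme Me1 (0.08, second probe set -0.28) were near 0 in their brightest probe sets. The single gene past 0.32 was the ornithine aminotransferase Oat (3442.4 and 7136.4, 1.05). Oat is also in the pericentral list, and Pck1 is also in the periportal list.

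**Figure D5:**
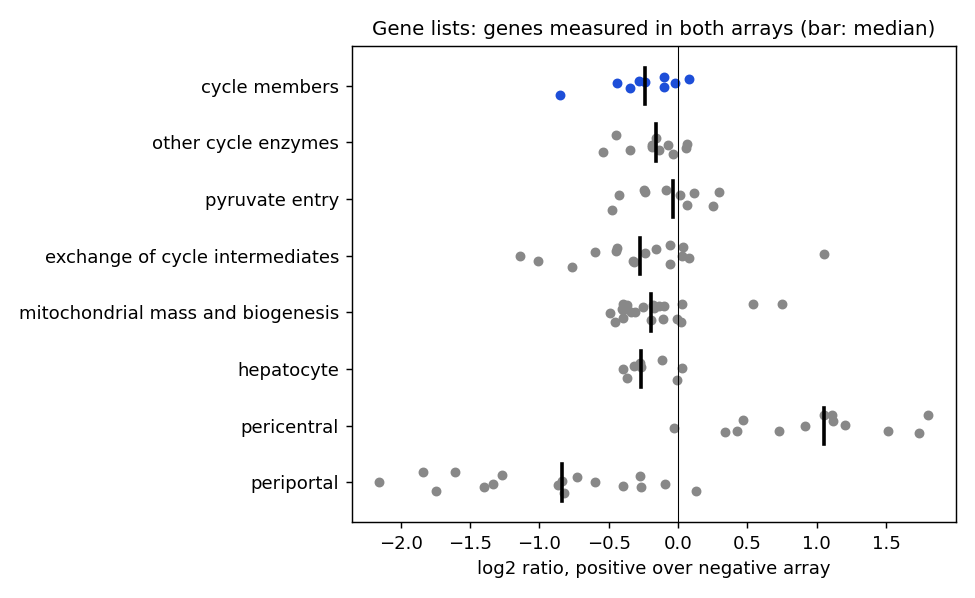
Log2 ratio, positive over negative (horizontal axis), for genes measured in both arrays, by list (rows); each point is 1 gene and the black bars are medians. The cycle members (median -0.24), the other cycle enzymes (-0.16), the mitochondrial list (-0.19) and the hepatocyte markers (-0.27) lie slightly below 0, between the pericentral genes (1.05) and the periportal genes (-0.84).

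Genes of mitochondrial mass and biogenesis had log2 ratios from -0.49 to 0.75. Among 21 measured genes, 17 read lower (50.0% of all genes), 8 of them at -0.32 or below (14.4% of all genes), and 4 higher, and the median was -0.19. Those with a mean signal above 1000 lie in the bands where 57.0% to 78.3% of genes were below 0. The mitochondrial RNA polymerase Polrmt (867.4 and 617.0, -0.49) and the chaperonin Hspe1 (-0.45, second probe set -0.01) were among those farthest below 0. The outer membrane channel Tomm40 (407.1 and 683.1, 0.75) and the transcription factor Nrf1 (396.1 and 577.3, 0.54), both of low signal, were the highest. Other probe sets of Nrf1 were at 0.35 and 0.01. Hepatocyte markers, all with a signal above 10000, had a median of -0.27, with 7 of 8 lower. Of genes above 10000, 78.3% were lower, and of all genes 50.0%. At -0.32 or lower were 2 of these markers (14.4% of all genes). The median of the cycle enzymes (-0.24) was not below that of these markers. Alb and Cps1 are also in the periportal list.

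Genes of the lobular zones had larger ratios than most of the cycle enzymes. Of 13 pericentral genes 12 were higher, with a median of 1.05, and of 17 periportal genes 16 were lower, with a median of -0.84. Of all measured genes, 50.0% were lower. The share was 57.0% for genes averaging 1000 to 4000, 68.6% for 4000 to 10000 and 78.3% above 10000. Both zonal lists include genes of these bands. The zonal lists were chosen with results of these arrays known, and their counts are not independent evidence of a zonal difference. The part of zonation in the ratios of the cycle enzymes was not tested.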

How the data were processed

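RNA of 2 sorted hepatocyte samples was hybridised to 1 array each, and groups came from the group label. The deposited values are probe set intensities that the authors made with MAS5, per the submitters' processing notes. Their 2% trimmed mean was 500.003 in both arrays, so a difference in total RNA per cell is not visible. The sources used here name no software version and no detection calls. Of the 45101 probe sets, 34945 carried 1 gene symbol, 932 several, 9160 none and 64 were controls. Symbols came from the platform annotation, and 0 changed among 34741 matched to RefSeq by Entrez ID. Gene values use only probe sets with 1 symbol. A further gene of the pathway is not reported here.

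Log2 ratios (positive over negative) were computed with Python 3.11.15, pandas 2.3.3 and statsmodels 0.14.6 (lowess span 0.3). With 1 array per group no test was made, and the number of arrays limits the precision. The script was checked on simulated data. Named were all probe sets of the 9 members, the other cycle enzymes, up to 4 genes with the largest ratios of other lists and the enzymes at the entries and exits of the cycle. Pdk2, Pdk3 and Pdk4 were named in addition, after their values were seen. The members and lists were chosen with earlier results of these data known. Alternatives of scaling were quantile normalization, loess and median centring. Others were the 99th percentile floor, no floor, genes above the floor in at least 1 array, the mean over probe sets, and no lettered probe sets.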

Additional observations from a re-analysis of the deposited data

How the results depend on the processing

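The count of enzymes below 0 was 8 of 9 as deposited and under 6 of 8 alternatives. Among those 6, only quantile normalization and the loess correction could have changed it, and under both Suclg1 and Dlst lay only just below 0. The others altered only the floor or shifted every ratio by the median of all genes, which was -0.0002. The brightest probe sets of the 9 genes exceeded every floor used. The count was 6 of 9 with the mean over probe sets and 4 of 7 without lettered probe sets, where fewer genes are left by construction. The count at a log2 ratio of -0.32 or lower was 2 or 3 under all 8. The median of the enzymes ranged from -0.24 to -0.02, and that of all genes from -0.01 to 0.03. Fh1 ranged from -0.85 to -0.76 over the 7 alternatives that gave it a value, Ogdh from -0.46 to -0.44 and Idh3g from -0.42 to -0.27 over 8. Cs and Idh3b moved by more than the technical spread of 0.29 only without lettered probe sets, to 0.23 and 0.04. No paired analysis was possible because each group has 1 array. Leaving out a replicate was not possible either. Probe sets near the floor, such as the dim ones of Dlst and Idh3a, are limited by signal over background.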
